A study of Mus musculus with 4 samples.

Results

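The genes described here are 10 members of the bone morphogenetic protein (BMP) pathway, namely the ligands Bmp4 and Bmp7, the receptors Bmpr1a and Bmpr2, the signal carriers Smad1 and Smad5, the inhibitor Smad6, and the target genes Id1, Id2 and Id3. They are 10 of the 22180 genes on the array. Each is read from 1 probe set, out of 41345 probe sets in all, and the only other probe set that names one of them is shared by Bmpr2 with another gene and was left aside. Bmp4 was chosen by its measured value, since it had been seen to be higher on the mouse PRDM14 array than on the empty vector array. The other members were chosen by their roles in the pathway, and the question put to them is whether the target genes follow Bmp4. The values that chose Bmp4 are therefore a description and support nothing.

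RNA came from mouse embryonic stem cells that lack Prdm14, cultured with 2i and LIF over a feeder layer of STO cells, which are mouse fibroblasts. 2i medium holds inhibitors of the MEK and GSK3 kinases, and LIF is leukemia inhibitory factor. All 4 groups share this knockout and this medium, and they differ only in what was put back. One group received a vector with no insert, one the mouse PRDM14 protein, one that of the sea urchin, and the last the sea urchin protein and a co-repressor of the same animal, CBFA2T. Each group is 1 array of strip 2 with no replicate, so no value here has an error, no test was possible, and every difference is a difference between a pair of arrays. Neither the number of clones behind a group nor the strength of each construct's expression was stated in the labels.

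BMP ligands bind a complex of type I and type II receptors on the cell surface. The type I receptor phosphorylates SMAD1, SMAD5 or SMAD9, which enter the nucleus with SMAD4 and switch on target genes, the Id genes first among them. ID proteins dimerise with basic helix-loop-helix transcription factors and keep them from binding DNA, and in mouse embryonic stem cells BMP4 with LIF is known to sustain self-renewal in serum-free medium, in part through Id genes. SMAD6 and SMAD7 are inhibitors of the pathway that it induces itself.

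The whole series can be described briefly. The values are log2 expression values per probe set, with array medians from 4.54 to 4.55. The Prdm14 probe set had values of 5.71 with the empty vector, 5.57 with mouse PRDM14, 5.77 with sea urchin PRDM14 and 5.53 with sea urchin PRDM14 and CBFA2T. It did not set the mouse PRDM14 array apart, so each group name below means the array labelled with it. All 10 embryonic stem cell markers checked, Pou5f1, Sox2 and Nanog among them, lay at or above the filter value of 4.84 on every array. The filter value is the median of all probe-set values with a gene name, and a gene whose highest array reached it counted as past the filter, which 12042 genes did. It is no detection limit: of 1105 olfactory receptor genes, a family of sensory neurons, 105 (9.50%) also passed. Of 12 fibroblast markers for the feeder cells, 7 were at or above it on each array. Their mean log2 value lay between 4.94 and 4.97 and their summed linear value between 464 and 474, while Postn, 1 of 5 defining markers, was below the filter value on all 4 arrays. In RNA of a mixed culture, fewer cells of a type and less RNA per cell cannot be told apart.

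Bmp4 was the member that differed most between the arrays. It encodes a secreted ligand of the pathway, and it measured 6.10 on the log2 scale with the empty vector, 6.89 with mouse PRDM14, 5.69 with sea urchin PRDM14 and 5.74 with sea urchin PRDM14 and CBFA2T (the CBFA2T array). The mouse PRDM14 array was thus the highest, the empty vector array lay in between, and the 2 sea urchin arrays were lowest and close to each other. Its range over the arrays, 1.20, was wider than that of 99.8% of the genes past the filter. That range uses the mouse PRDM14 value by which Bmp4 was chosen, so it is a description.

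Against the empty vector, Bmp4 was higher by 0.79 with mouse PRDM14, which is 1.73-fold, and lay on the other side with the sea urchin proteins, at -0.41 for PRDM14 alone and -0.36 once CBFA2T was added. By size, 20 of the 12042 genes had a larger difference than Bmp4 on the mouse PRDM14 array, since it ranked 21. These 3 differences share the empty vector array. Set directly against mouse PRDM14, the sea urchin PRDM14 array was lower by a difference of -1.20 (2.29-fold) and the array with CBFA2T by one of -1.14 (2.21-fold), and both of these share the mouse PRDM14 array. Between sea urchin PRDM14 and mouse PRDM14, Bmp4 had the lowest difference of all 12042 genes and was the only gene at least 2-fold lower. The next lowest, 2210409E12Rik, an unnamed transcript cited after its value was seen, had a difference of -0.85. With CBFA2T added, Bmp4 ranked 7 from the lowest against mouse PRDM14. All of these ranks use the mouse PRDM14 value that chose Bmp4, so they are a description and support nothing. The 2 sea urchin arrays differed in Bmp4 by 0.05.

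The upstream sequence of Bmp4 is shown with those of Id2, Id3 and Smad6, because these genes are the ligand that differed and the targets that would answer it. RefSeq promoter entries of GRCm38.p6 were found for 8 of the 10 members, all but Bmp7 and Id1. Each line below holds the 250 bases before the annotated start, 5′ to 3′ on the gene's own strand. Bmp4 lies on the minus strand (chr14:46390670-46390919), as do Id2 (chr12:25096093-25096342) and Smad6 (chr9:64022060-64022309), and Id3 lies on the plus strand (chr4:136143572-136143821). Capitals mark every match to GTCT or its reverse complement AGAC, the 4-base box that SMAD proteins can bind, and to GGCGCC, a core found in BMP response elements, which reads the same on both strands.
Bmp4: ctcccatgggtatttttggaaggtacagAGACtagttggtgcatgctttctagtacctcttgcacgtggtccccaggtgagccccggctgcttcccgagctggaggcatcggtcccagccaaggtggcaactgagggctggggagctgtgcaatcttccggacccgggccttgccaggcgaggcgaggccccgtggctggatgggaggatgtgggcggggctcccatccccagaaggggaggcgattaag
Id2: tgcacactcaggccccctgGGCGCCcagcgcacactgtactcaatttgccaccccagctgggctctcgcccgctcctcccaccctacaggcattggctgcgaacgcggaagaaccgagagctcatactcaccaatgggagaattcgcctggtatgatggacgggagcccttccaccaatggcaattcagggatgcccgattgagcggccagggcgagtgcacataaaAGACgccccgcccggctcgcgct
Id3: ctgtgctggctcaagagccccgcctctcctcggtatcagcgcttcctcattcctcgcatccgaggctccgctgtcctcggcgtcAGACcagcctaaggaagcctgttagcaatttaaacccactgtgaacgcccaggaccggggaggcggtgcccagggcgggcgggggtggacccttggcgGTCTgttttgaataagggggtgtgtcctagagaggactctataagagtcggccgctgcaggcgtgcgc
Smad6: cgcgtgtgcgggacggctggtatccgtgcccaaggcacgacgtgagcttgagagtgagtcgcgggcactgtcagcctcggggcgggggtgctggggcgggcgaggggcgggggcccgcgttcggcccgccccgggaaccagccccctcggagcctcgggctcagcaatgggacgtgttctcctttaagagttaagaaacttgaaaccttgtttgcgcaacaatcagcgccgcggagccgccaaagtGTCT

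Bmp4 held 1 SMAD box, 222 bases before the start, and no GGCGCC. Id2 held a GGCGCC that begins 231 bases before the start and a SMAD box that begins 23 bases before it. Id3 held 2 SMAD boxes, at 166 and 68 bases, and Smad6 held 1, which ends just before the start. None of these matches overlap. A box of 4 bases is common by its length: 82.9% of the 32851 promoter entries hold at least 1 in the same window. GGCGCC is in 9.59% of them. Among the members not printed, Bmpr1a and Bmpr2 each had a GGCGCC, and Smad5 had one before 1 of its 3 annotated starts. The 4 printed windows were rich in G and C, at 63.2% for Bmp4, 62.8% for Id2 and for Id3, and 66.8% for Smad6, beside a median of 52.4% over all entries. These matches are letters in a short window and say nothing about binding.

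Each of the Id genes differed by 0.23 or less between the arrays, while Bmp4 differed by 1.20, or 2.29-fold, between its highest and its lowest array. Id1 had values of 4.48 with the empty vector, 4.45 with mouse PRDM14, 4.37 with sea urchin PRDM14 and 4.38 on the CBFA2T array. Its difference between mouse PRDM14 and the empty vector was -0.03. Id3 had 5.06 both with the empty vector and with mouse PRDM14, 4.98 with sea urchin PRDM14 and 4.99 on the CBFA2T array, a range of 0.09 that was wider than that of only 9.41% of the genes past the filter. Where Bmp4 was 1.73-fold higher, Id3 differed by -0.01.

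Id2 had values of 4.77 with the empty vector, 4.79 with mouse PRDM14, 4.72 with sea urchin PRDM14 and 4.56 on the CBFA2T array. The CBFA2T array was the lowest of the 4, by -0.21 against the empty vector and by -0.17 against sea urchin PRDM14 alone, and the other arrays differed by 0.06 at most. The range of Id2, 0.23, was wider than that of 61.9% of the genes past the filter. Id1 and Id2 stayed below the filter value on all 4 arrays, so 8 of the 10 members passed it. A fold of a gene this dim is drawn toward 1 by background signal, and a difference in Id1 or Id2 may not be detectable on these arrays. Id3 passed on every array, but at 4.98 to 5.06 it lay close to the filter value, which is no detection limit. A small difference in Id3 may be hidden in the same way.

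**Figure D1:**
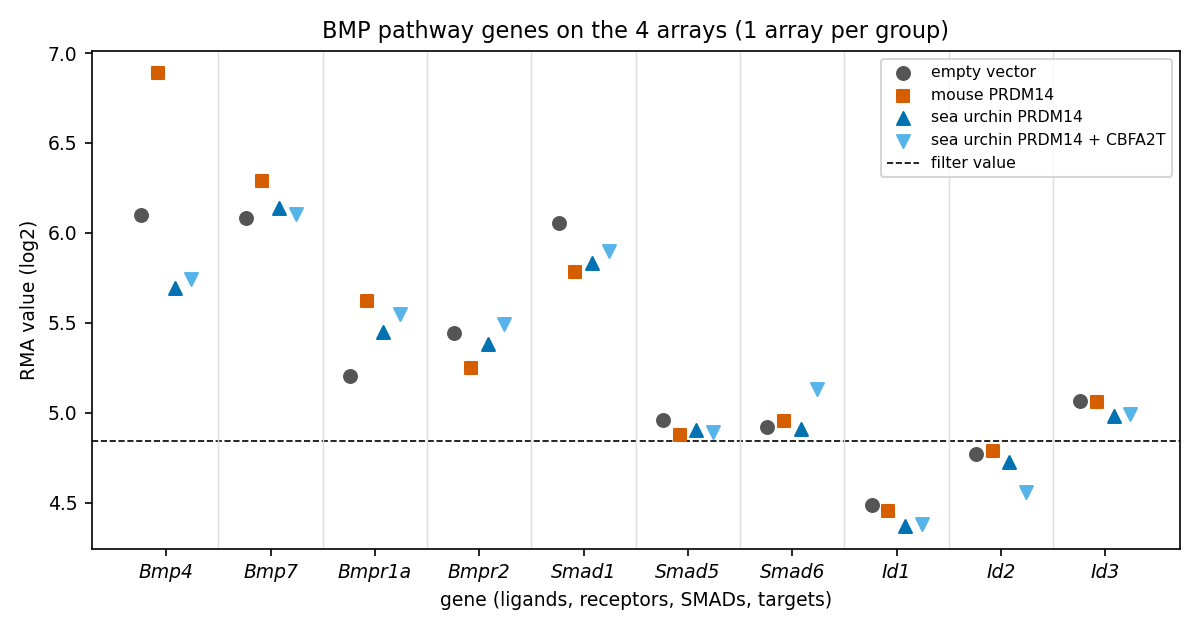
Log2 values (vertical axis) of the 10 BMP pathway genes (horizontal axis) on the 4 arrays, 1 point per array, with the filter value of 4.84 as a dashed line. Bmp4 spreads from 5.69 to 6.89, while each of Id1, Id2 and Id3 spreads by 0.23 or less, and heights of different genes are not to be compared.

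Smad6, an inhibitor and target of the pathway, was not highest on the mouse PRDM14 array, where Bmp4 was. It had values of 4.92 with the empty vector, 4.95 with mouse PRDM14, 4.91 with sea urchin PRDM14 and 5.13 on the CBFA2T array. The array with CBFA2T stood above the others, by 0.21 against the empty vector and 0.22 against sea urchin PRDM14 alone, and the other 3 lay within 0.04 of one another. The array highest in Smad6 was the lowest in Id2, a gene below the filter value on all 4 arrays. Smad6 itself, at 4.91 to 5.13, lay close to the filter value, so a small difference in it may be hidden as well.

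The Id genes shared part of the arrangement of Bmp4 over the arrays, with smaller gaps. For Bmp4, Id1, Id2 and Id3, 4 of the 10 members, the empty vector and mouse PRDM14 arrays both lay above both sea urchin arrays. That arrangement was found in 16.6% of the genes past the filter and in 17.9% of all genes with no filter. The gap between the lower of the first pair and the higher of the second was 0.36 for Bmp4, 0.07 for Id1, 0.04 for Id2 and 0.07 for Id3. Over all genes past the filter, differences between a pair of arrays had standard deviations of 0.16 to 0.20. The Id gaps are small beside that spread, and Id1 and Id2 were below the filter value on all 4 arrays, so no response of the Id genes is read from them. Within the first pair, mouse PRDM14 was above the empty vector for Bmp4 and, by 0.02, for Id2, but not for Id1 or Id3. This arrangement was picked after the values had been seen, and Bmp4 was itself chosen by its value, so the counts are a description. With 4 arrays no correlation with Bmp4 was computed.

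The other ligand, Bmp7, whose protein acts alone or joined to BMP4, had values of 6.08 with the empty vector, 6.29 with mouse PRDM14, 6.14 with sea urchin PRDM14 and 6.11 on the CBFA2T array. It was highest with mouse PRDM14, as Bmp4 was, by 0.21 over the empty vector, but on the sea urchin arrays it was not below the empty vector.

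Bmpr1a, the type I receptor for BMP4 also known as ALK3, was lowest with the empty vector. Its values were 5.20 there, 5.62 with mouse PRDM14, 5.45 with sea urchin PRDM14 and 5.55 on the CBFA2T array. The 3 differences from the empty vector were 0.42, 0.24 and 0.34, all of one sign but all resting on the same empty vector array. The range of Bmpr1a, 0.42, was wider than that of 93.1% of the genes past the filter, and it rests on that array too. Bmpr2, the type II receptor, had 5.44, 5.25, 5.38 and 5.49 in the same order of arrays. It was lowest with mouse PRDM14, by -0.20 against the empty vector, where both ligands and Bmpr1a were highest.

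Of the signal carriers, Smad1 was highest with the empty vector. It had 6.05 there, 5.78 with mouse PRDM14, 5.83 with sea urchin PRDM14 and 5.90 on the CBFA2T array, which gives differences of -0.27, -0.22 and -0.16. Smad5, which carries the same signal, lay between 4.87 and 4.96 on all 4 arrays. Its range of 0.08 was wider than that of only 8.58% of the genes past the filter.

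At a threshold of 1.5-fold, which is 0.58 on the log2 scale, Bmp4 was the only member called in any comparison. It was 1 of 10 for mouse PRDM14 against the empty vector, where 0.457% of the genes past the filter were called, and nothing is read from this count because that contrast chose Bmp4. It was also 1 of 10 for sea urchin PRDM14 against mouse PRDM14 (0.515% of genes called) and for the CBFA2T array against mouse PRDM14 (0.739% of genes called), comparisons that reuse the mouse PRDM14 array of that choice. With the empty vector as the base, no member was called on the sea urchin PRDM14 array (0.498% of genes) or on the CBFA2T array (0.822%), and none was called between the 2 sea urchin arrays (0.515%). A count of 0 of 10 lies near these background shares. The median difference of the 10 members lay between -0.07 and 0.03 in the 6 comparisons, and that of all genes past the filter between -0.01 and 0.01.

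**Figure D2:**
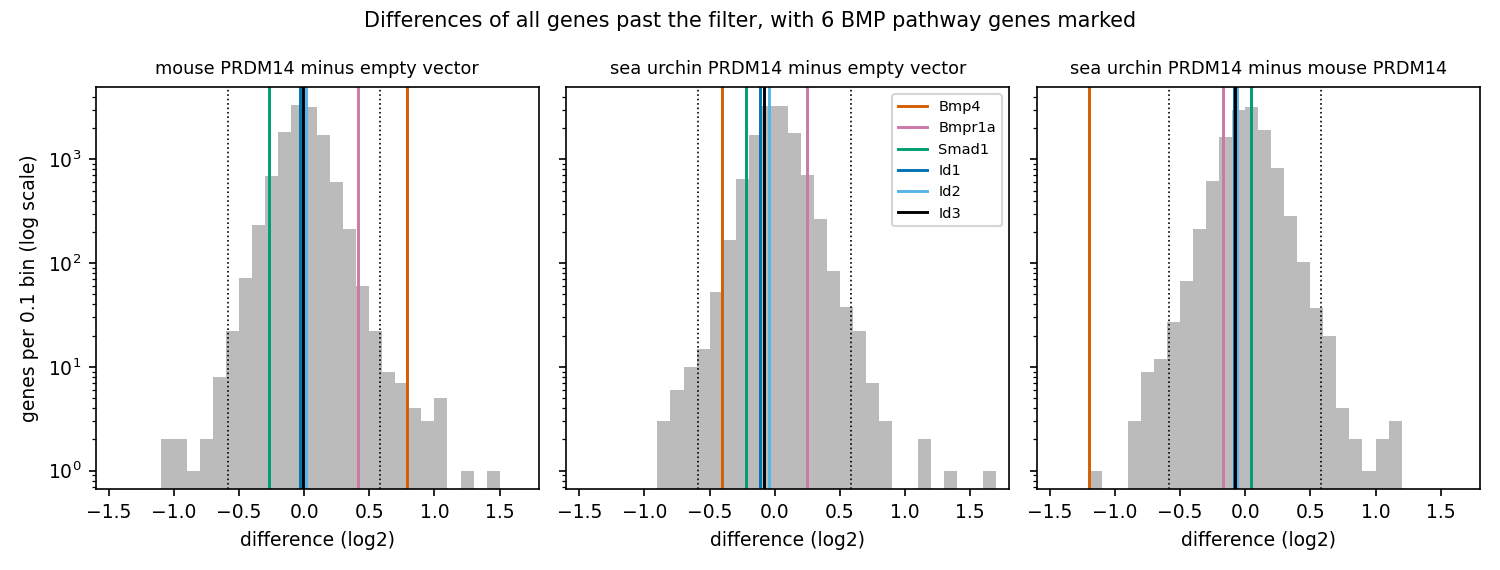
Number of genes past the filter (vertical axis, log scale) by log2 difference (horizontal axis, bins of 0.1) in 3 comparisons, with coloured lines for 6 members and dotted lines at 1.5-fold. Bmp4 lies at 0.79, -0.41 and -1.20, in the last case below every other gene, and the lines of Id1, Id2 and Id3 lie close to 0 in all 3 comparisons.

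The wider pathway was read from lists of ligands, receptors, antagonists, SMAD proteins with their ubiquitin ligases, and targets. These hold 63 genes, of which 59 were measured and 38 passed the filter. Apart from Bmp4, none of the 38 was past 1.5-fold in any of the 6 comparisons, in either direction. Of all genes past the filter, 0.457% to 0.822% were called in a comparison. A count of 0 in a list this small lies near that share. The median of the 38 was -0.02 with mouse PRDM14, -0.03 with sea urchin PRDM14 and -0.06 on the CBFA2T array, each against the empty vector.

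Among the targets, 17 were measured and 10 passed the filter. With mouse PRDM14, 3 of the 10 were above the empty vector and 7 below, with a median of -0.10, and with sea urchin PRDM14 the same numbers gave a median of -0.07. With CBFA2T added, 2 were above and 8 below, with a median of -0.14. All 3 comparisons rest on the same empty vector array. Over all genes past the filter the medians were -0.01, 0.01 and 0.01, with standard deviations of 0.16, 0.16 and 0.20. The target medians are small beside that spread, and whether the targets differ as a group was not tested. Smad7, the second inhibitory SMAD, had the largest target difference with mouse PRDM14 (-0.35) and with CBFA2T added (-0.39). Its values were 5.84 with the empty vector, 5.49 with mouse PRDM14, 5.64 with sea urchin PRDM14 and 5.45 on the CBFA2T array, so it was not highest where Bmp4 was. Between sea urchin and mouse PRDM14 it differed by 0.15. Dusp9, a phosphatase of ERK that BMP signalling is known to induce in embryonic stem cells, had 6.90 with the empty vector, 6.58 with mouse PRDM14, 6.43 with sea urchin PRDM14 and 6.75 on the CBFA2T array. Its difference of -0.47 with sea urchin PRDM14 was the largest among targets there, and with mouse PRDM14 it was -0.31. Id4 differed by -0.34 between the 2 sea urchin arrays and by 0.22 between sea urchin and mouse PRDM14, and it passed the filter only through the sea urchin PRDM14 array (4.85).

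Antagonists such as noggin bind BMP ligands outside the cell and keep them from their receptors. Other genes of the antagonist list, Sost among them, are not taken here to act in that way. Of 13 genes of the list measured, 8 passed the filter. Fstl1, a secreted follistatin-related protein, had the largest difference in each comparison with the empty vector. It had 7.43 with the empty vector, 6.96 with mouse PRDM14, 7.18 with sea urchin PRDM14 and 6.92 on the CBFA2T array, so the empty vector array was highest and the differences were -0.47, -0.25 and -0.51. Fibroblasts express Fstl1 as well. Of the feeder markers, Col3a1 had the same order of arrays as Fstl1, at -0.18 between the CBFA2T and empty vector arrays. Fap, below the filter value on all 4 arrays, and Thy1 were also highest with the empty vector. Other markers went the other way: of the 7 past the filter, 4 were higher on the CBFA2T array than with the empty vector and 3 lower. The mean of all 12 was 4.97 on both of these arrays. The part of the feeder cells in the Fstl1 difference was not tested. Nog, the gene of the BMP4 antagonist noggin, had 4.95 with the empty vector, 4.97 with mouse PRDM14, 4.77 with sea urchin PRDM14 and 4.96 on the CBFA2T array. It was lowest on the array that was lowest in Bmp4. Sost had the largest difference between the 2 sea urchin arrays (-0.33) and between the CBFA2T and mouse PRDM14 arrays (-0.23), and Nbl1 that between sea urchin and mouse PRDM14 (-0.27).

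Among 15 ligands, 8 passed the filter. Bmp8a differed by -0.43 between the CBFA2T and empty vector arrays and Bmp3 by 0.26 between the 2 sea urchin arrays, the largest ligand differences in those comparisons. Bmp8a passed the filter only through the empty vector (4.89) and mouse PRDM14 (4.85) arrays and was at 4.45 on the CBFA2T array. Of 9 receptors and co-receptors measured, 7 passed. The co-receptor gene Eng led the sea urchin comparisons with the empty vector, at 0.27 for PRDM14 alone and 0.38 with CBFA2T added. Bmpr2 had the largest receptor difference between the CBFA2T and mouse PRDM14 arrays (0.25). Acvrl1 differed by 0.13 between the 2 sea urchin arrays and by -0.18 between sea urchin and mouse PRDM14.

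**Figure D3:**
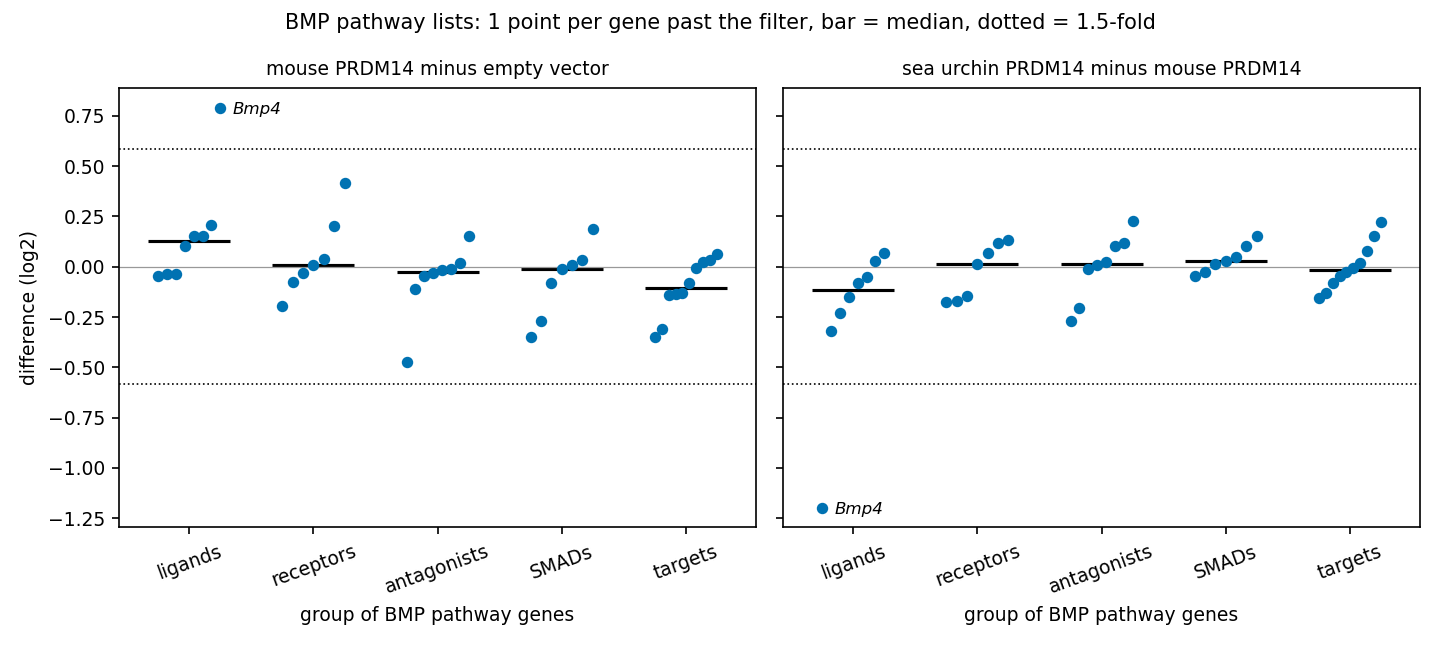
Log2 differences (vertical axis) of the pathway genes past the filter, 1 point per gene, in 5 groups (horizontal axis), with bars at the group medians and dotted lines at 1.5-fold. Bmp4 is the only point beyond the dotted lines, at 0.79 in the left panel and -1.20 in the right, and the target medians are -0.10 and -0.02.

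The 5 genes with established names whose profiles lay nearest to that of Bmp4 were outside the pathway. Likeness was the root mean square difference, over the 4 arrays, between log2 values centred on each gene's own mean, so a small value means a like profile. The closest of 10764 genes with established names were Malat1, a nuclear long noncoding RNA (0.18), Stmn2, a microtubule regulator (0.20), Nynrin (0.21), Atp1b1, a subunit of the sodium pump (0.23), and Chchd10, a mitochondrial protein gene (0.23). Malat1 had values of 7.36 with the empty vector, 7.95 with mouse PRDM14, 7.21 with sea urchin PRDM14 and 7.18 on the CBFA2T array. These 5 genes were picked for their likeness to Bmp4, so their arrangement over the arrays follows from the choice and is a description. Like Bmp4, they were highest with mouse PRDM14, by 0.32 to 0.59 over the empty vector, and lower on both sea urchin arrays. Of the members past the filter, Bmp7 came closest to Bmp4, at rank 809, and Id3 ranked 2276. Values were centred but not scaled, so a gene with a narrow range could not come close to Bmp4, whatever its order. These ranks therefore reflect range as well as order.

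**Figure D4:**
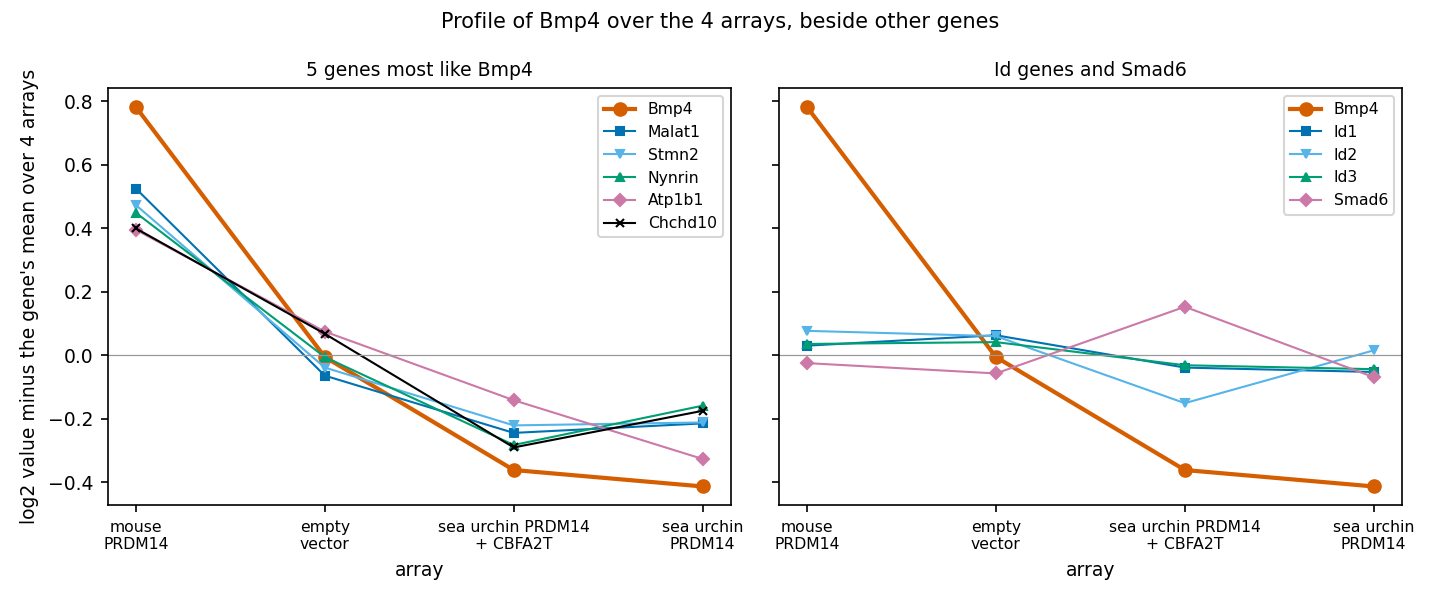
Log2 value minus the gene's mean over the 4 arrays (vertical axis) by array (horizontal axis), for Bmp4 with the 5 genes most like it (left) and with Id1, Id2, Id3 and Smad6 (right). The like genes, which were picked for this likeness, are highest with mouse PRDM14, as Bmp4 is. The 3 Id genes stay within a range of 0.23 and Smad6 is highest with CBFA2T.

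The order of the arrays in Bmp4, with mouse PRDM14 first, then the empty vector, then the CBFA2T array and then sea urchin PRDM14, was shared by 3.92% of the genes past the filter. None of the 10 targets past the filter had it, nor any of the receptors or SMAD genes, and among the antagonists Nbl1 did. A count of 0 in lists this small lies near that share, so nothing is read from it. The order of the 2 sea urchin arrays rests on a Bmp4 difference of only 0.05. Of the 10 embryonic stem cell markers, Esrrb, Klf4, Tfcp2l1 and Dppa5a had the order of Bmp4. Tfcp2l1, a transcription factor gene of naive pluripotency, had 7.60 with mouse PRDM14, 7.35 with the empty vector, 7.21 on the CBFA2T array and 6.93 with sea urchin PRDM14. Klf4 had 6.26, 5.98, 5.88 and 5.74 in that order. Their differences between sea urchin and mouse PRDM14 were -0.67 and -0.52, beside -1.20 for Bmp4. Other markers of the list went the other way: Utf1 and Tdgf1 were highest with sea urchin PRDM14, by 0.28 and 0.32 over mouse PRDM14, and Nanog was highest on the CBFA2T array. The marker list was drawn up to check the cell type, and this order was looked for in it after the values had been seen.

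The genes next to Bmp4 on chromosome 14 were read as well, taking the 3 nearest on each side with an established name and a probe set by their position in the annotation. Of these 6, Gnpnat1 and Rubie were below the filter value on all 4 arrays and Ddhd1 reached it on 1, so these are too dim to show a small difference. Between sea urchin and mouse PRDM14 the lowest difference was -0.03, for Ddhd1, whereas Fermt2 differed by 0.06 and Cdkn3 by 0.36, and Cnih1, a cargo receptor gene of the secretory pathway, was higher by 0.52. Cnih1 had 4.73 with the empty vector, 4.97 with mouse PRDM14, 5.49 with sea urchin PRDM14 and 5.13 on the CBFA2T array, so it was highest where Bmp4 was lowest. Rubie, a noncoding RNA gene next to Bmp4, lay between 3.83 and 3.95. Bmpr1a is on chromosome 14 as well, and the other members lie on other chromosomes.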

How the data were processed

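Total RNA of 4 cultures was labelled with biotin and hybridised to 4 GeneAtlas arrays. The authors' deposited log2 values came from RMA, per the submitters' processing notes, which corrects background, equalises the array distributions and summarises probes. Its version, build and the set of arrays normalized at once were not stated in the labels. Equalised distributions hide a shift shared by most genes.

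Of 41345 probe sets, 23521 were paired with 1 gene by the platform annotation, 1814 with several and 16010 with none. A gene's value was that of its probe set with the highest mean, and a gene passed the filter when its highest array reached 4.84. A gene that is bright on a single array passes as well. Differences were called by size, at 1.5-fold. The calling step was tested on simulated data, with planted changes well above the threshold. That check says nothing about differences near 1.5-fold or about real array noise.

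The members, lists and thresholds were chosen with earlier results of these data known. Named genes were the 10 members, the genes of the BMP lists past 1.5-fold or else the largest of a list in a comparison, and the 5 genes most like Bmp4, leaving out predicted genes, small RNAs and receptor families by symbol. Nog, the cell type markers given with values and the neighbours of Bmp4 were named outside this rule, after their values were seen. The alternatives tried were cyclic loess, the mean of all probe sets, a 2-fold threshold, and a filter on the mean, at the 75th percentile (5.65) or none. Analyses ran in Python 3.11.15 (pandas 2.3.3, numpy 2.4.6, matplotlib 3.10.9) and in R 4.3.3 with limma 3.58.1.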

Additional observations from a re-analysis of the deposited data

Results flagged for a closer look

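Bmp4 lay above the empty vector with mouse PRDM14 and below it with both sea urchin constructs. The sea urchin arrays differed from the mouse PRDM14 array by -1.20 without CBFA2T and by -1.14 with it. With 1 array per group these opposite directions were not tested.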

How the results depend on the processing

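All 60 differences of the 10 members over the 6 comparisons kept their sign and their side of 1.5-fold after cyclic loess, which moved them by at most 0.014. They were identical with the mean of all probe sets, since each member has 1 probe set. At 2-fold, 0 members were called for mouse PRDM14 against the empty vector, and Bmp4 alone was still called for each sea urchin array against mouse PRDM14. Over all genes, 2-fold left 10 genes for mouse PRDM14, 4 for sea urchin PRDM14 and 25 for the CBFA2T array, each against the empty vector, 22 between the 2 sea urchin arrays, and 7 and 22 for the sea urchin arrays without and with CBFA2T against mouse PRDM14. Counts under the other alternatives stayed within 1.5 times those reported. No paired analysis was possible because each group has 1 array. The dim signal of Id1 and Id2, the values of Id3, Smad5 and Smad6 close to the filter value, and the lack of replicates limit what can be read from small differences.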
